A study of Mus musculus with 2 samples.

Results

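The Notch pathway genes described here are the receptors *Notch1*, *Notch2* and *Notch3*, the ligands *Jag1*, *Jag2* and *Dll4*, and the target genes *Hes1*, *Hey1*, *Heyl* and *Sox9*. These 10 genes were taken by symbol from the 32589 genes listed for both libraries, since an activated Notch receptor is one of the drivers of the tumors studied. Their UMIs (unique molecular identifiers, each of which stands for 1 captured transcript molecule) were summed per library over cells of a class. A class was set for each cell by marker genes that hold none of the 10 genes.

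CCA (cholangiocarcinoma, bile duct cancer) was raised in mice by HDTVI, a hydrodynamic injection into the tail vein that carries plasmids into liver cells. The plasmids held NICD (the Notch intracellular domain, under the EF1α promoter) and myr-AKT (a myristoylated AKT). All animals carried a doxycycline-inducible shRNA construct against YAP and TAZ (shYT) with CAG-rtTA3, which drives it in all tissues, and the shRNA was switched on at day 25 in both groups. The shYT_PBS library came from tumors treated with PBS, and the shYT_antiPD1 library from tumors treated with the anti-PD-1 antibody RMP1-14 on days 26, 29 and 32, all analyzed at day 33. Each group is 1 library, and the labels give neither the shYT line (shYT#1 or shYT#2) nor the age or sex of the mice. The study describes several mice per group and used both sexes, but cells were not tagged by mouse, so no spread between mice can be had from a library. No shRenilla library was analysed here, so only the antibody treatment could be compared, without a replicate and therefore without a test between groups.

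Notch receptors are single-pass membrane proteins that are cleaved when a ligand on a neighboring cell binds, which frees the intracellular domain. This domain enters the nucleus, joins the DNA-binding protein RBPJ and a Mastermind coactivator, and switches on *Hes* and *Hey* genes, which encode transcriptional repressors. In the liver, Notch signals direct bile duct development, where JAG1 on periportal mesenchyme meets NOTCH2 on bipotent progenitors, and in blood vessels DLL4 and NOTCH1 set arterial fate. *Sox9* encodes a transcription factor of bile duct cells and responds to Notch in that lineage.

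A 300-base promoter (250 bases before to 50 after the transcription start) was found in the RefSeq promoter set (GRCm38.p6) for 6 of the 10 genes, namely the 3 receptors and the 3 ligands. None of the 6 held TGGGAA, the core of the RBPJ motif, on either strand, against 8397 of all 32851 promoters of this length (25.6%). Of 71 other pathway genes fixed as a list, 56 had a promoter in the set and 18 of these held the motif (32.1%), against 28.3% of all 27025 genes in the set. At least 2 matches were found in 6 of the 56 genes, beside 3.79% of all promoters, which is a share of promoters and not of genes. A match is a string of letters and no evidence of binding. The promoters of *Notch3* and *Dll4* are shown because these were the receptor lowest with anti-PD-1 relative to PBS in fibroblasts and the ligand lowest in endothelial cells, at chr17:32166841-32167140 (reverse strand) and chr2:119325534-119325833 (forward strand). Those of *Hey2*, another HES/HEY repressor, and *Lfng*, a sugar transferase that modifies Notch receptors, are shown because both genes were at least 2-fold lower in anti-PD-1 tumor cells and hold the motif 2 times, at chr10:30842734-30843033 (reverse strand) and chr5:140607091-140607390 (forward strand). The sequences read 5′ to 3′ on the strand of the gene, and capitals mark TGGGAA or its reverse complement TTCCCA. The match nearest the start began 3 bases before it in *Hey2*, and so ran across it, and 108 bases before it in *Lfng*. The farther matches began 207 and 135 bases before the start.
Notch3: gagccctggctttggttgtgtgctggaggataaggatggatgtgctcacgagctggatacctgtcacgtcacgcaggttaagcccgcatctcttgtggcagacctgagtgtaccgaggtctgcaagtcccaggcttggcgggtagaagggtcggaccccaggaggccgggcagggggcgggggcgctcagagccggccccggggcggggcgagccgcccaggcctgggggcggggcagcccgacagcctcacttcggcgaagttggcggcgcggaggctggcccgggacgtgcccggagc
Dll4: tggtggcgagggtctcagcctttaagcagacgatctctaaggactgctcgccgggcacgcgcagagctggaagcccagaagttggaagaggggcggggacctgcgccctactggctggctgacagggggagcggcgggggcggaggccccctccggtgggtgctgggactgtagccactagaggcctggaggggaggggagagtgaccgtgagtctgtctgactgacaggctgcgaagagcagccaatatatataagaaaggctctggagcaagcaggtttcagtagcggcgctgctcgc
Hey2: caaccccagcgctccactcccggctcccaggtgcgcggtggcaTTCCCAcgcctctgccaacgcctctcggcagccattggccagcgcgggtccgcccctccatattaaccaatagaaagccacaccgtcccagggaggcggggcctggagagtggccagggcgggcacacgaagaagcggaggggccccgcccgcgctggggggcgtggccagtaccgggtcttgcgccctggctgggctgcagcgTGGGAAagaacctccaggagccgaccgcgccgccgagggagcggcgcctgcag
Lfng: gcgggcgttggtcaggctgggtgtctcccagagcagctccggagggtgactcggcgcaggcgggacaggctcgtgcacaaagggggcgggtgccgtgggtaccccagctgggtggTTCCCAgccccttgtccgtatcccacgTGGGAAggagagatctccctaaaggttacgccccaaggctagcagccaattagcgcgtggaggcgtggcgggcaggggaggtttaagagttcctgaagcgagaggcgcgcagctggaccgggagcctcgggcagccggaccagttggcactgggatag

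The PBS library held 19397 cell barcodes, of which 15531 passed the filters on detected genes and mitochondrial reads. With anti-PD-1 there were 19451, of which 16360 passed, at a median depth of 3159 and 2990 UMIs. Of these cells, 81.7% and 80.8% took 1 of 18 classes by their markers. The tumor/biliary epithelial class held 605 and 322 cells, fibroblasts 455 and 187, mural cells 89 and 29, endothelial cells 489 and 92, and macrophages 4241 and 3113. Each of these classes had all 6 of its defining markers detected in both libraries. The tumor/biliary epithelial class is called tumor cells throughout. Its markers include *Epcam* and *Krt19*, whose proteins the study also used to mark normal bile duct cells. Nonmalignant bile duct cells are therefore not set apart from tumor cells here, whereas the study identified tumor cells by AKT and NICD expression. The 2 libraries shared 219 barcodes, 145 of them among the filtered cells. *Xist*, the RNA of the inactive X chromosome, was counted 18452 times with PBS and 11 times with anti-PD-1, and 4 Y-linked genes 3113 and 15323 times. The libraries thus also differed in the sex of the cells, which cannot be told apart from the treatment. Values from cells with Y-linked UMIs and without *Xist*, called Y-linked cells here, are given where they move a result in tumor cells, fibroblasts, endothelial cells or macrophages as a whole, and were not computed for other classes or subsets. The genes targeted by the shRNAs are given for tumor cells, but without an shRenilla library no knockdown can be read from their levels. *Yap1* was at 9.40 CPM (6.75 to 12.8) with PBS and 14.2 CPM (9.21 to 21.0) with anti-PD-1, and *Wwtr1*, the gene of TAZ, was at 12.2 CPM (9.10 to 15.9) and 6.26 CPM (3.13 to 11.2).

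Levels are given as CPM, the UMIs of a gene scaled to the UMIs of all genes in the cells of a class. The range in parentheses is the exact 95% Poisson interval. Log2 ratios set anti-PD-1 against PBS with 5 CPM added on each side, so that ratios of low genes come out smaller. Their 95% interval comes from the split of the UMIs between the libraries. All intervals cover counting error only, not differences between mice. A gene was compared in a class with at least 20 UMIs over both libraries, and at least 2-fold means a log2 ratio of 1 or more in size.

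The 10 genes peaked in different cell classes (plot of levels by class), and orders below are among classes with at least 50 cells in the library unless mural cells are named. *Notch1* (mm10 chromosome 2, 26457903 to 26516663, reverse strand) was highest in PBS mural cells, pericytes and smooth muscle cells of vessels, at 484 CPM (435 to 536). It was at 313 CPM (296 to 329.8) in tumor cells and 302 CPM (281 to 324) in endothelial cells, which did not differ beyond their intervals. Neutrophils followed at 159 CPM (144 to 175), and T cells held 88.4 CPM (82.9 to 94.2). In the anti-PD-1 library the order was again tumor cells, endothelial cells and neutrophils, at 274, 199 and 139 CPM, and the 29 mural cells were at 609.6 CPM (506 to 728). UMIs of the NICD transgene and of endogenous *Notch1* cannot be told apart in these counts, since it is not given in the sources used here whether transgene reads were counted.

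**Figure D1:**
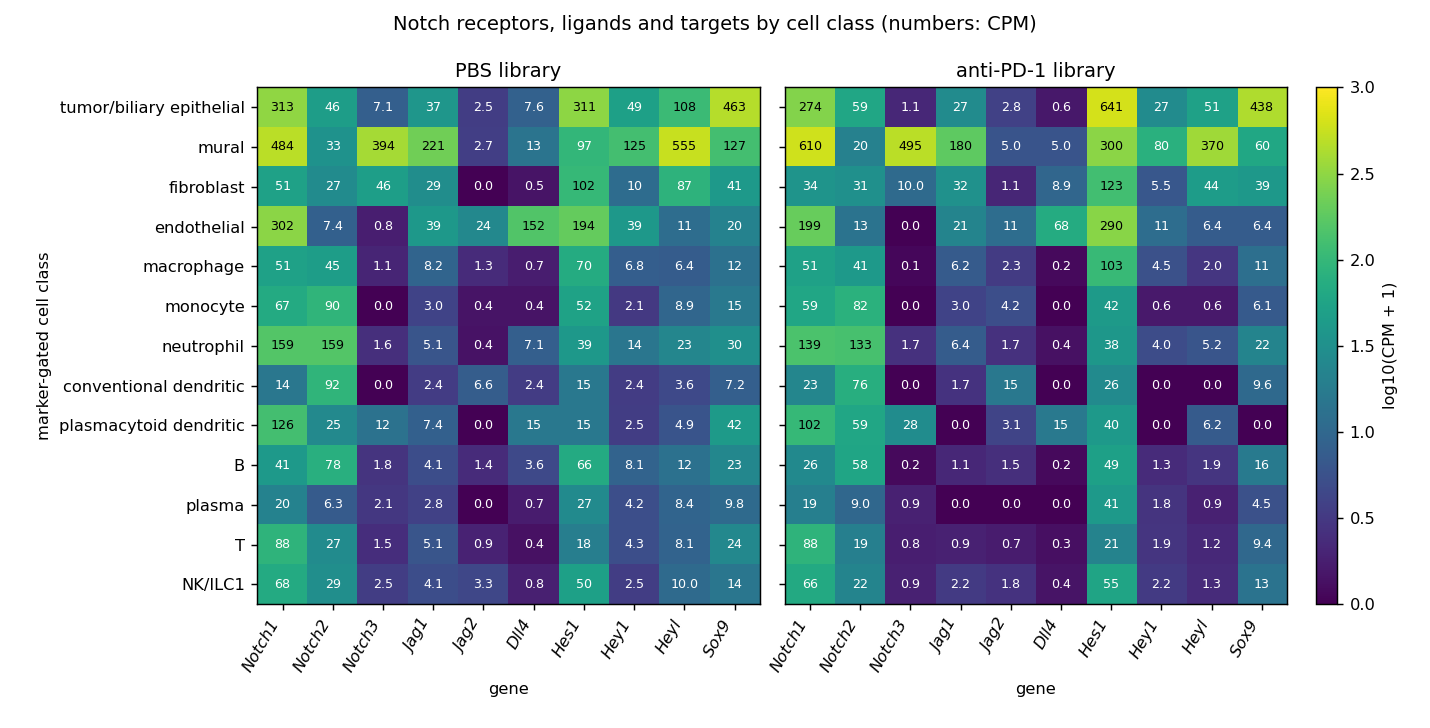
Levels of the 10 genes (columns) in marker-gated classes with at least 50 cells in both libraries and in mural cells (rows), PBS left and anti-PD-1 right; the number in each field is the CPM and the color its log10 after adding 1. *Notch3* and *Jag1* are highest in mural cells, *Dll4* in endothelial cells and *Notch2* in neutrophils, and *Hes1* and *Sox9* are high in tumor cells.

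*Notch2* (chromosome 3, 98013527 to 98150361, forward strand), the receptor of bile duct development, was highest in neutrophils, at 159 CPM (144 to 175) with PBS and 133 CPM (125 to 141) with anti-PD-1. Conventional dendritic cells (91.6 and 75.8 CPM) and monocytes (89.8 and 82.4 CPM) came next, overlapped with each other in both libraries and changed places between them. Tumor cells held 46.1 and 58.6 CPM. *Notch3* (chromosome 17, 32120820 to 32166852, reverse strand), the receptor that mural cells need to mature, was at 394 CPM (350 to 441) in PBS mural cells and 495 CPM (402 to 602) in anti-PD-1 mural cells. Fibroblasts held 46.4 CPM (37.8 to 56.3) and 9.98 CPM (4.56 to 18.9). Macrophages were at 1.06 CPM and 0.142 CPM, and no conventional dendritic cell or monocyte UMI was found in either library. Plasmacytoid dendritic cells had 5 and 9 *Notch3* UMIs, or 12.4 CPM (4.01 to 28.8) and 27.9 CPM (12.8 to 53.0).

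Of the ligands, *Jag1* (chromosome 2, 137081456 to 137116644, reverse strand) was at 221 CPM (189 to 258) in PBS mural cells and 179.9 CPM (126 to 249) in anti-PD-1 mural cells. Endothelial cells, tumor cells and fibroblasts, at 38.8, 36.9 and 28.7 CPM with PBS and 21.4, 26.7 and 32.2 CPM with anti-PD-1, overlapped with their neighbors in the order. *Dll4* (chromosome 2, 119325784 to 119335962, forward strand) was at 152 CPM (138 to 168) in PBS endothelial cells, and the next class, plasmacytoid dendritic cells, was at 14.8 CPM (5.44 to 32.3). *Jag2* (chromosome 12, 112907819 to 112929776, reverse strand) was the lowest of the ligands in count, with 298 UMIs in all gated cells. It was at 24.4 CPM (18.8 to 31.3) in PBS endothelial cells and 14.8 CPM (8.63 to 23.7) in anti-PD-1 conventional dendritic cells.

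Of the targets, *Hes1* (chromosome 16, 30064384 to 30067796, forward strand) was led by tumor cells and then endothelial cells in both libraries, at 311 and 194 CPM with PBS and 641 and 290.4 CPM with anti-PD-1, with intervals that did not overlap. *Heyl* (chromosome 4, 123233556 to 123249875, forward strand) was at 555 CPM (504 to 611) in PBS mural cells, followed by tumor cells at 108 CPM (98.9 to 119) and fibroblasts at 86.9 CPM (75.0 to 100.1), whose intervals overlapped. *Hey1* (chromosome 3, 8663359 to 8667256, reverse strand) was at 125 CPM (101 to 152) in PBS mural cells, and tumor cells (49.3 CPM), mature dendritic cells (39.9 CPM, from 14 UMIs in 2 cells) and endothelial cells (38.8 CPM) followed. *Sox9* (chromosome 11, 112782224 to 112787760, forward strand) was at 463 CPM (443 to 483) in PBS tumor cells and 127 CPM (103 to 155) in PBS mural cells, and no other class was above the 42.0 CPM of plasmacytoid dendritic cells.

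The mural class is small and not pure. Its 6 markers summed to 9689 CPM with PBS and 14885 CPM with anti-PD-1, but the PBS mural cells also held 184 CPM of the 6 epithelial markers and 11578 CPM of *Spp1*, a secreted protein that tumor cells carried at 28905 CPM, against 49.97 and 2823 CPM in the anti-PD-1 mural cells. One mural marker, *Rgs5*, was itself found in tumor cells, at 410.0 CPM with PBS and 917 CPM with anti-PD-1. In mural cells *Hes1* went from 96.8 to 299.8 CPM (log2 ratio 1.58, 1.08 to 2.08), *Heyl* from 555 to 370 CPM (-0.58, -0.95 to -0.23) and *Sox9* from 127 to 59.96 CPM (-1.03, -1.93 to -0.21). *Notch1* went from 484 to 609.6 CPM (0.33, 0.03 to 0.63), and the intervals of *Notch2*, *Notch3*, *Jag1* and *Hey1* included 0. In the same mural cells neutrophil markers summed to 75.6 CPM with PBS and 499.7 CPM with anti-PD-1 and macrophage markers to 169.7 and 409.7 CPM, and their part in these values was not tested. The anti-PD-1 values rest on 29 cells, and 1 cell held 22 of the 60 *Hes1* UMIs. In PBS mural cells, 5 of 89 cells held 62.5% of the 96 *Sox9* UMIs, and 1 cell held 17. The 24 PBS mural cells with *Sox9* had a median depth of 14310 UMIs, against 5016 in those without.

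*Sox9* and *Heyl* were also counted in immune cells. PBS T cells held 24.2 CPM of *Sox9* and anti-PD-1 T cells 9.42 CPM, together with 1575 and 709 CPM of *Spp1*. To read such counts, *Sox9* UMIs were set against the UMIs of the 6 epithelial markers in the same cells. Tumor cells had 17.5 *Sox9* UMIs (16.7 to 18.4) per 100 epithelial-marker UMIs with PBS and 17.0 (15.7 to 18.4) with anti-PD-1. Macrophages had 18.9 and 23.0, B cells 14.9 and 17.8, neutrophils 16.0 and 20.8, T cells 20.8 and 15.1, and endothelial cells 19.6 and 12.5. Not all of these lay at the ratio of tumor cells, since the interval of anti-PD-1 macrophages (20.3 to 26.0) was above it. Dendritic cells were uneven between the libraries, with 4.17 (2.13 to 7.39) and 15.7 (7.50 to 29.9) in conventional and 19.1 (10.7 to 32.3) and 0 (0 to 5.75) in plasmacytoid dendritic cells, and 12.5 (4.37 to 29.3) in PBS mature dendritic cells. The part of free RNA in the *Sox9* count of immune and endothelial cells was not tested. Fibroblasts had 35.6 (27.6 to 45.4) and 40.2 (26.4 to 60.2), and PBS mural cells 69.1 (52.7 to 90.2), above tumor cells in each case. The mural value rests largely on the few cells with many *Sox9* UMIs described above. The tumor class was itself chosen by these markers, which lowers its ratio.

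**Figure D2:**
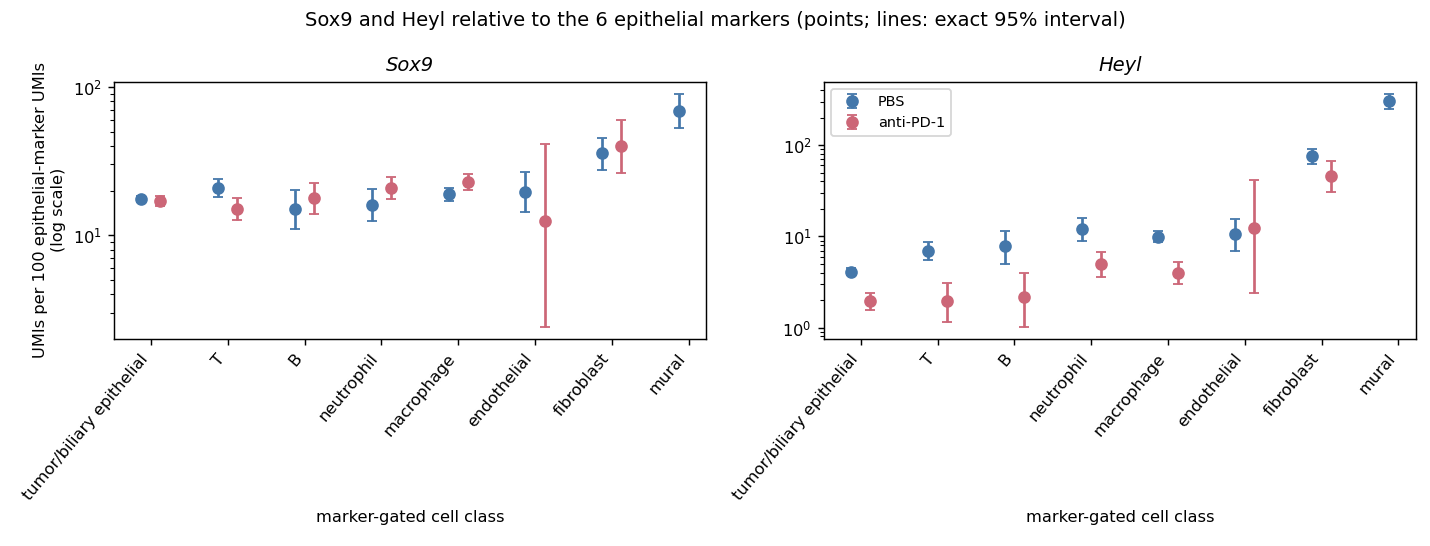
*Sox9* (left) and *Heyl* (right) UMIs per 100 UMIs of the 6 epithelial markers on a log axis, by class, for the PBS and anti-PD-1 libraries; points are ratios of summed UMIs and lines exact 95% intervals. For *Sox9* the T, B, neutrophil, macrophage and endothelial points lie between 12.5 and 23.0, beside 17.5 and 17.0 in tumor cells, and fibroblasts and mural cells lie above; for *Heyl* fibroblasts (75.5 with PBS) and mural cells (301 with PBS) lie far above.

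*Heyl* followed another pattern. Tumor cells had 4.11 *Heyl* UMIs (3.74 to 4.51) per 100 epithelial-marker UMIs with PBS and 1.97 (1.57 to 2.42) with anti-PD-1. T cells had 6.94 and 1.95, and macrophages 9.97 and 3.97. The count of *Heyl* in T cells and macrophages was thus lower with anti-PD-1, as in tumor cells, but not to the same degree. Monocytes went from 14.1 to 1.16, while plasmacytoid dendritic cells, with 2 UMIs in each library, were not lower (2.25 and 3.03). The part of free RNA in the *Heyl* count of immune cells was not tested. Fibroblasts (75.5 and 46.0) and PBS mural cells (301) lay far above tumor cells.

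In tumor cells, *Hes1* was higher and *Heyl*, *Hey1*, *Dll4* and *Notch3* were lower with anti-PD-1 (plot of log2 ratios). Of the 10 genes, 9 had at least 20 UMIs. Of these, 1 was at least 2-fold higher, against 2.73% of all 12034 genes compared in these cells, and 2 were at least 2-fold lower, against 2.09%. The median log2 ratio of the 9 genes was -0.40 (median of the bounds, -0.82 to -0.04), and that of all genes was -0.03. Among Y-linked cells the median of the genes compared was 0.24, so its direction turned.

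**Figure D3:**
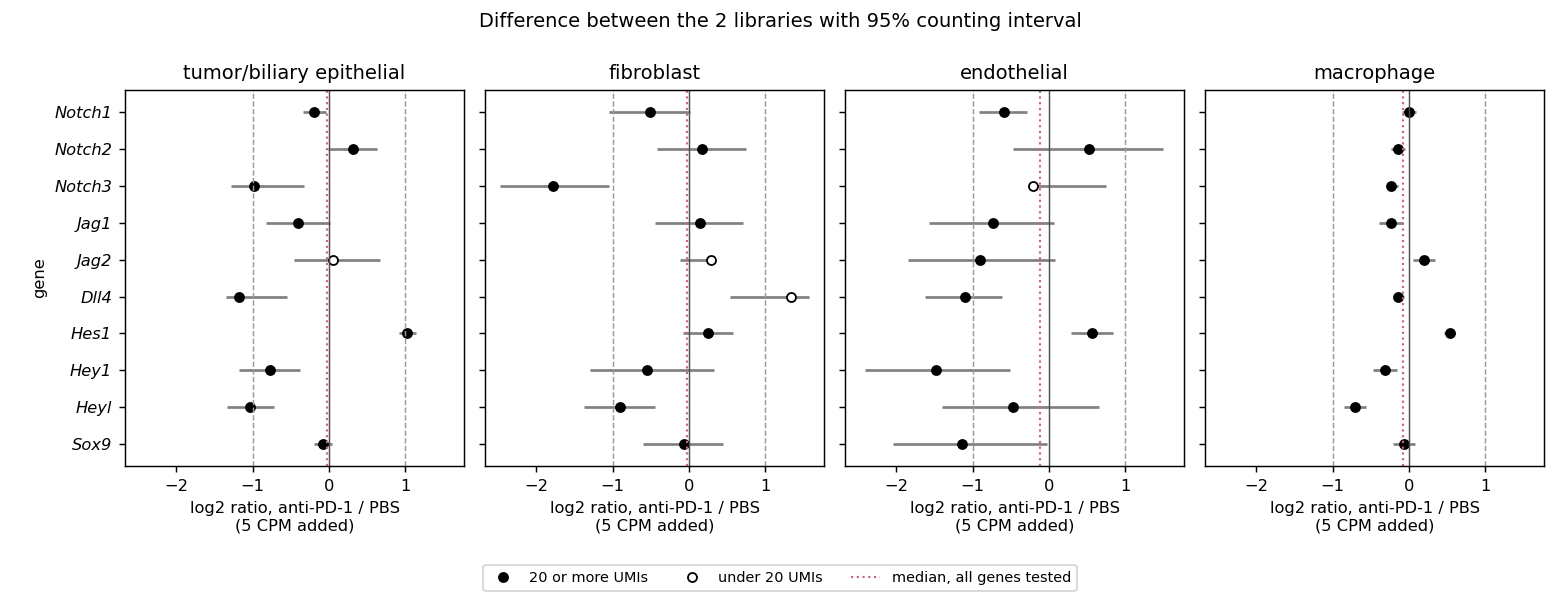
Log2 ratio of anti-PD-1 over PBS (x axis, 5 CPM added) for each gene in 4 classes; filled points are genes with at least 20 UMIs, open points have fewer, horizontal lines are 95% counting intervals, dashed lines mark 2-fold and the dotted line the median of all genes compared. *Hes1* lies right of 0 in tumor cells (1.03), endothelial cells (0.57) and macrophages (0.54), and *Heyl* and *Hey1* lie left of 0 in all 4 classes.

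*Hes1* had 1355 UMIs in tumor cells with PBS and 1126 with anti-PD-1, although the anti-PD-1 library held fewer tumor cells. Its level was 311 CPM (294 to 328) with PBS and 641 CPM (604 to 679) with anti-PD-1, a log2 ratio of 1.03 (0.92 to 1.15). The most *Hes1* UMIs in 1 cell were 34 and 49, and the top 5% of cells held 33.7% and 39.1% of them. With each cell thinned to 1000 UMIs, *Hes1* was found in 24.5% (21.1 to 28.3) of 575 PBS tumor cells and 37.3% (31.7 to 43.2) of 284 anti-PD-1 tumor cells, against 57.7% and 60.2% without thinning. T cells, which hold little *Hes1*, had it in 1.18% (0.83 to 1.62) and 2.14% (1.68 to 2.69) after thinning, so their intervals did not overlap either. The median depth was 4640 and 2827 UMIs in tumor cells and 2797 and 3683 in T cells. Without tumor-gated cells that also had at least 2 mural, endothelial or fibroblast markers, the ratio was 0.62 (0.46 to 0.77), and among Y-linked cells it was 1.40 (1.11 to 1.71).

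*Heyl* had 473 and 89 UMIs, or 108 CPM (98.9 to 119) with PBS and 50.7 CPM (40.7 to 62.3) with anti-PD-1, a log2 ratio of -1.03 (-1.34 to -0.72). *Hey1* was at 49.3 CPM (42.9 to 56.4) and 26.7 CPM (19.7 to 35.6), for a log2 ratio of -0.77 (-1.18 to -0.37). The HES/HEY repressors thus did not move together in tumor cells. After thinning, *Heyl* was found in 9.91% (7.59 to 12.7) of PBS and 4.23% (2.20 to 7.26) of anti-PD-1 tumor cells, while the shares for *Hey1*, 3.30% and 2.82%, overlapped. Among Y-linked cells, 42 with PBS and 135 with anti-PD-1, the *Heyl* ratio was -0.22 (-0.87 to 0.46), which includes 0.

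Of the receptors in tumor cells, *Notch1* was at 313 and 274 CPM, a log2 ratio of -0.19 (-0.34 to -0.04), but at 0.24 (-0.08 to 0.56) among Y-linked cells. *Notch2* (46.1 and 58.6 CPM, 0.32, -0.01 to 0.64) and *Jag1* (36.9 and 26.7 CPM, -0.40, -0.82 to 0.01) had intervals that included 0. Over all settings, the ratio of *Notch2* ran from 0.12 to 0.97 and that of *Jag1* from -1.15 to -0.30. *Dll4* had 33 UMIs with PBS and 1 with anti-PD-1, or 7.57 CPM (5.21 to 10.6) and 0.569 CPM (0.0144 to 3.17), and *Notch3* had 31 and 2. These UMIs were spread over 26 and 25 PBS cells, whose median depth was 14457 and 14972 UMIs, against 4318 and 4345 in PBS tumor cells without a UMI of the gene. Without the cells with at least 2 mural, endothelial or fibroblast markers, *Dll4* had 17 and 1 UMIs and *Notch3* 12 and 1. *Jag2* had 11 and 5 UMIs and was not compared.

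*Sox9*, the bile duct factor, was similar in tumor cells, at 463 CPM (443 to 483) and 438 CPM (408 to 470), for a log2 ratio of -0.08 (-0.20 to 0.04). It was found in 401 of 605 and 179 of 322 cells. Among Y-linked cells the ratio was 0.50 (0.22 to 0.78), and without cells with stromal markers it was -0.35 (-0.53 to -0.17), so its direction depended on the cells taken. In PBS tumor cells *Heyl* was found in 43.6% of the 401 cells with *Sox9* and 10.8% of the 204 without, which also differed in median depth (8293 and 2016 UMIs).

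Tumor cells of the 2 libraries also differed in other RNA. Neutrophil markers summed to 139.7 CPM with PBS and 516 CPM with anti-PD-1, macrophage markers to 215 and 359 CPM, mural markers to 524 and 1019.9 CPM (mostly *Rgs5*) and endothelial markers to 18.3 and 13.1 CPM. Plasmacytoid dendritic markers summed to 592 and 56.3 CPM, of which 586 and 49.5 CPM came from 1 marker, and plasma cell markers to 351 and 189 CPM. Acinar markers summed to 19.3 and 38.7 CPM, with 2 and 5 of the 6 detected. The acinar class itself held 0 cells with PBS and 53 with anti-PD-1. All 6 neutrophil and all 6 macrophage markers were detected in both libraries. The part of all these RNAs in the differences above was not tested. Neutrophils themselves held 39.3 and 37.9 CPM of *Hes1*.

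Of the 71 other pathway genes, 59 were compared in tumor cells, and 1 was at least 2-fold higher and 3 at least 2-fold lower. *Neurl3*, a ubiquitin ligase of the Neuralized family, was at 31.0 CPM with PBS and 115 CPM with anti-PD-1 (log2 ratio 1.74, 1.45 to 2.03). *Hey2* was at 19.95 and 2.28 CPM (-1.78, -2.19 to -1.15), *Notch4*, a receptor of endothelium, at 9.86 and 0.569 CPM (-1.42, -1.59 to -0.79), and *Lfng* at 9.63 and 2.28 CPM (-1.01, -1.44 to -0.35). *Hey2* and *Lfng* are the genes whose promoters with 2 motif matches are printed above. None of the 10 receptor cleavage genes, 8 genes of the nuclear complex or 11 corepressors was at least 2-fold different, a count to be read against the 2.73% and 2.09% of all genes that were higher or lower, and *Rbpj* was at 33.7 and 35.3 CPM.

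In fibroblasts, *Notch3* and *Heyl* were lower with anti-PD-1. Of 8 genes compared, none was at least 2-fold higher, against 3.17% of all 10756 genes, and 1 was at least 2-fold lower, against 3.11%. *Notch3* had 102 and 9 UMIs, or 46.4 and 9.98 CPM, a log2 ratio of -1.78 (-2.47 to -1.05). The 50 PBS fibroblasts with *Notch3* had a median depth of 8657 UMIs, against 2350 in those without. *Heyl* was at 86.9 CPM (75.0 to 100.1) and 44.4 CPM (31.7 to 60.4), a ratio of -0.90 (-1.37 to -0.44), and 40 anti-PD-1 UMIs came from 12 cells, 14 of them from 1 cell. Mural markers in the same fibroblasts summed to 569 CPM with PBS and 265 CPM with anti-PD-1, with all 6 markers detected in both libraries, and their part in the *Notch3* and *Heyl* values was not tested. *Notch1* (51.0 and 34.4 CPM), *Notch2* (26.8 and 31.0 CPM), *Jag1* (28.7 and 32.2 CPM), *Hes1* (102 and 123 CPM), *Hey1* (10.5 and 5.54 CPM) and *Sox9* (40.9 and 38.8 CPM) had intervals of the ratio that included 0. Over all settings, the ratio of *Notch1* ran from -1.90 to -0.25 and that of *Notch2* from -1.93 to 1.00. *Dll4* had 1 and 8 UMIs, 4 of the latter in 1 cell, and *Jag2* had 0 and 1, so neither was compared.

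The median ratio of the 8 genes in fibroblasts was -0.29 (median of the bounds, -0.82 to 0.39), and that of all genes -0.02. Its direction turned among Y-linked cells (0.17), with a margin of 2 markers (0.23) and with no minimum of UMIs (0.04). Y-linked fibroblasts were only 34 with PBS and 82 with anti-PD-1. Among them *Notch2* (4 and 25 UMIs) and *Sox9* (4 and 26 UMIs) had ratios of 1.00 (-0.28 to 2.29) and 1.05 (-0.23 to 2.34), while *Notch3* and *Heyl* stayed lower, at -2.21 and -1.50. Of the other pathway genes, 55 were compared, with 2 at least 2-fold higher and 3 lower, against 3.17% and 3.11% of all genes. *Hey2* was again lower, at 17.3 and 1.11 CPM (-1.87, -2.18 to -0.91), together with the feedback inhibitor *Nrarp* (52.3 and 23.3 CPM, -1.02, -1.62 to -0.43) and *Snai2*, a transcriptional repressor of mesenchymal cells (34.1 and 12.2 CPM, -1.19, -1.88 to -0.47). PBS mural cells held 164 CPM of *Hey2* and 831 CPM of *Nrarp*. *Neurl3* (16.4 and 44.4 CPM, 1.21, 0.63 to 1.77) and the growth regulator *Myc* (38.2 and 96.5 CPM, 1.23, 0.82 to 1.64) were higher. *Neurl3* was found beyond these classes, at 318 and 446 CPM in neutrophils, whose 6 markers summed to 399 and 868 CPM in fibroblasts, and at 80.7 and 256 CPM in T cells.

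In endothelial cells, the ligand *Dll4*, the receptor *Notch1* and the target *Hey1* were lower with anti-PD-1 and *Hes1* was higher, and of these the interval of *Notch1* lay below 0 also after thinning and among Y-linked cells. Of 9 genes compared, none was at least 2-fold higher, against 2.89% of all 10282 genes, and 3 were at least 2-fold lower, against 5.44%. *Dll4* was at 152 CPM (138 to 168) with PBS and 68.3 CPM (46.7 to 96.5) with anti-PD-1, a log2 ratio of -1.10 (-1.63 to -0.61). *Notch1* was at 302 CPM (281 to 324) and 199 CPM (160.3 to 243), a ratio of -0.59 (-0.91 to -0.29), and was found in 320 of 489 and 44 of 92 cells. *Hey1* had 100 and 5 UMIs, or 38.8 and 10.7 CPM, a ratio of -1.48 (-2.41 to -0.50). *Hes1* was at 194 CPM (178 to 212) and 290.4 CPM (244 to 344), a ratio of 0.57 (0.29 to 0.84).

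After thinning to 1000 UMIs per cell, *Dll4* was found in 14.1% (11.1 to 17.6) of 468 PBS and 12.9% (6.64 to 22.0) of 85 anti-PD-1 endothelial cells and *Hes1* in 13.9% (10.9 to 17.4) and 16.5% (9.31 to 26.1), so both overlapped, with ratios of -0.09 (-0.98 to 0.72) and 0.28 (-0.57 to 1.06). Unthinned, *Dll4* was found in 32.5% and 17.4% of cells and *Hes1* in 42.7% and 44.6%, and thinned T cells had *Dll4* in 0.0637% and 0%. *Notch1* remained lower after thinning by its ratio (-0.94, -1.78 to -0.19), while its shares, 27.1% (23.2 to 31.4) and 15.3% (8.40 to 24.7), overlapped. Among Y-linked endothelial cells, 34 and 41, the ratio of *Notch1* was -0.68 (-1.20 to -0.15). That of *Dll4* was -0.82 with a wider interval (-1.77 to 0.12), from 20 and 17 UMIs. *Hes1* was at 0.10 (-0.39 to 0.60) and *Hey1*, from 3 and 4 UMIs, at -0.17 (-1.90 to 1.60).

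The third gene at least 2-fold lower in endothelial cells was *Sox9*, at 20.2 and 6.41 CPM (-1.14, -2.04 to -0.02), which turned to 0.86 when cells were thinned, on 5 and 2 UMIs. *Jag1* (38.8 and 21.4 CPM), *Jag2* (24.4 and 10.7 CPM), *Notch2* (7.37 and 12.8 CPM) and *Heyl* (10.9 and 6.41 CPM) had intervals that included 0. The median of the 9 genes was -0.73 (median of the bounds, -1.57 to 0.07). The median of all genes in these cells was itself -0.12. Without the upper limit of 5000 detected genes, none of the 9 genes was at least 2-fold lower. The share of all genes at that setting was not computed.

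The ligands were unequal among endothelial cells (plot of endothelial subsets). Among PBS endothelial cells, 142 had no UMI of a sinusoidal marker and 347 had at least 1. *Jag2* was at 72.7 CPM (53.2 to 97.0) in the former and 8.73 CPM (5.09 to 14.0) in the latter, *Jag1* at 72.7 and 27.7 CPM, *Hey1* at 83.8 and 24.1 CPM, and *Dll4* at 217 and 132 CPM, with intervals that did not overlap in any of the 4 genes. *Notch1* was at 343 CPM (299 to 392) and 289 CPM (265 to 314), and *Hes1* at 189.7 and 196 CPM. The split depends on depth, since a deeper cell shows a marker more often, and the median depth was 3425 and 4525 UMIs. After thinning, the shares of the 2 PBS subsets overlapped for *Jag2* (4.58% and 0.593%), *Jag1* (7.63% and 3.26%) and *Dll4* (19.1% and 12.2%). Only those of *Hey1*, 7.63% (3.72 to 13.6) and 1.48% (0.483 to 3.43), did not overlap among these 4 genes. In cells with a sinusoidal marker, *Dll4* was at 132 CPM (116 to 149) with PBS and 48.9 CPM (29.5 to 76.4) with anti-PD-1, a ratio of -1.34 (-2.01 to -0.72), and *Hes1* at 196 and 304 CPM (0.62, 0.32 to 0.92). The thinned shares of both genes in these cells overlapped, however. They were 12.2% (8.87 to 16.1) and 9.84% (3.70 to 20.2) for *Dll4*, and 13.6% (10.2 to 17.8) and 16.4% (8.15 to 28.1) for *Hes1*. Only 26 anti-PD-1 cells lacked a sinusoidal marker, and there *Dll4* was at 163 CPM (86.7 to 278) and the ratio interval included 0 (-1.31 to 0.40). Whether the 2 subsets differed in their response was not tested.

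**Figure D4:**
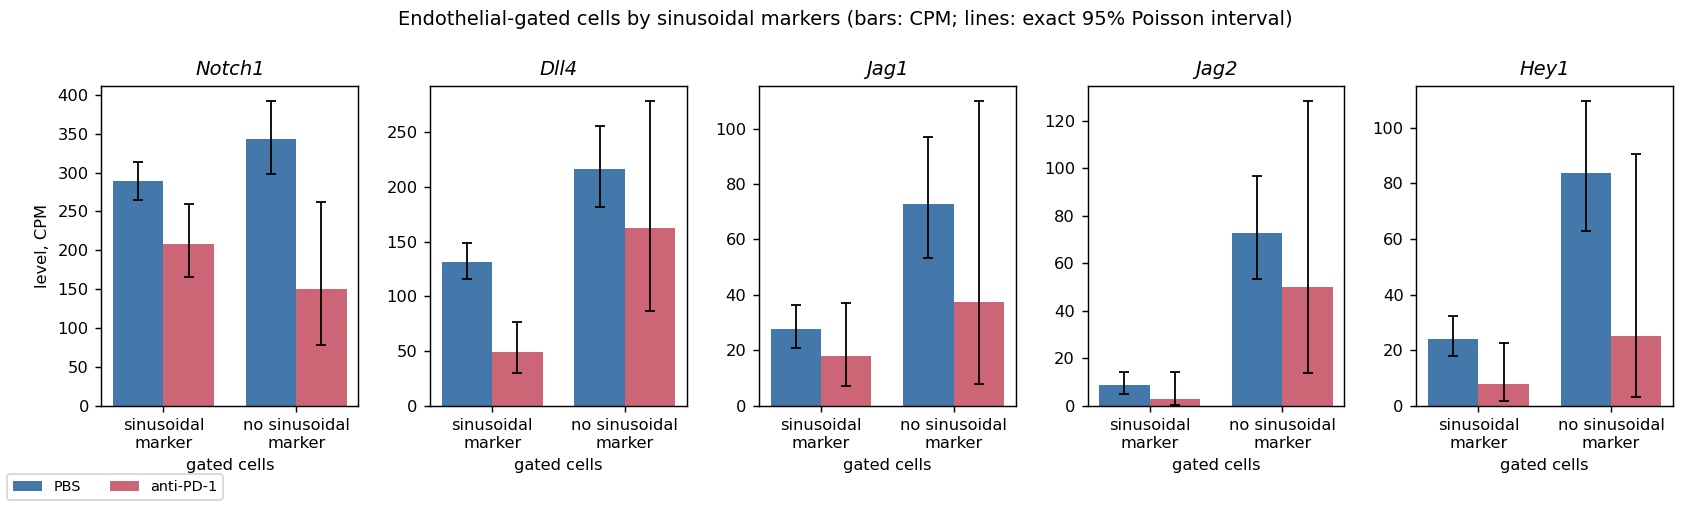
CPM of 5 genes in endothelial cells with and without a sinusoidal marker for the PBS and anti-PD-1 libraries; bars start at 0 and lines are exact 95% Poisson intervals. In the PBS library *Dll4*, *Jag1*, *Jag2* and *Hey1* are higher in cells without a sinusoidal marker, and the anti-PD-1 intervals of those 26 cells are wide.

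Of the other pathway genes, 55 were compared in endothelial cells, with 2 at least 2-fold higher, against 2.89% of all genes, and 6 lower, against 5.44%. The latter included *Gja5*, a gap junction protein (73.7 and 17.1 CPM, -1.83), and *Efnb2*, an ephrin (123 and 55.5 CPM, -1.08, -1.65 to -0.54). The sugar transferase *Mfng* (83.0 and 32.0 CPM), the ubiquitin ligase *Dtx1* (17.8 and 4.27 CPM) and the coactivator *Maml3* (32.6 and 12.8 CPM) were lower by 2-fold or more as well. *Spp1*, at 1528 and 587 CPM, was far below tumor cells and moved as in T cells. The ubiquitin ligases *Neurl3* (60.5 and 171 CPM, 1.43, 1.04 to 1.80) and *Dtx3l* (24.4 and 83.3 CPM, 1.59, 1.03 to 2.12) were higher. Neutrophil markers summed to 167 and 517 CPM in these cells, with all 6 detected in both libraries. Fibroblast markers summed to 73.7 and 167 CPM and epithelial markers to 103 and 51.3 CPM. The 6 endothelial markers themselves summed to 6901 and 5490 CPM, with *Kdr* at 1005 and 581 CPM. The part of these shifts in the values above was not tested.

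In macrophages, *Hes1* was higher with anti-PD-1 over all cells but not within either kind of macrophage (plot of macrophage subsets). Of the 10 genes compared, none was at least 2-fold higher, against 1.97% of all 15267 genes, and none at least 2-fold lower, against 0.57%. *Hes1* was at 69.6 CPM (67.0 to 72.4) with PBS and 103 CPM (99.5 to 107) with anti-PD-1, a log2 ratio of 0.54 (0.46 to 0.61). Kupffer cells, the resident macrophages of the liver, were taken as macrophages with at least 2 of 5 Kupffer markers. They held 117 CPM (111 to 123) and 115 CPM (111 to 119) of *Hes1*, a ratio of -0.03 (-0.12 to 0.07), and the other macrophages held 47.4 CPM (44.7 to 50.2) and 53.1 CPM (47.1 to 59.7), a ratio of 0.15 (-0.02 to 0.32). Kupffer cells were 1241 of 4241 macrophages with PBS and 2299 of 3113 with anti-PD-1. *Hes1* was thus more than 2-fold higher in Kupffer cells than in other macrophages of the same library. Among Y-linked macrophages the ratio was 0.06 (-0.08 to 0.20), although Kupffer cells were 181 of 497 with PBS and 1489 of 1883 with anti-PD-1 there as well. The part of the Kupffer share in the difference over all macrophages was not tested.

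**Figure D5:**
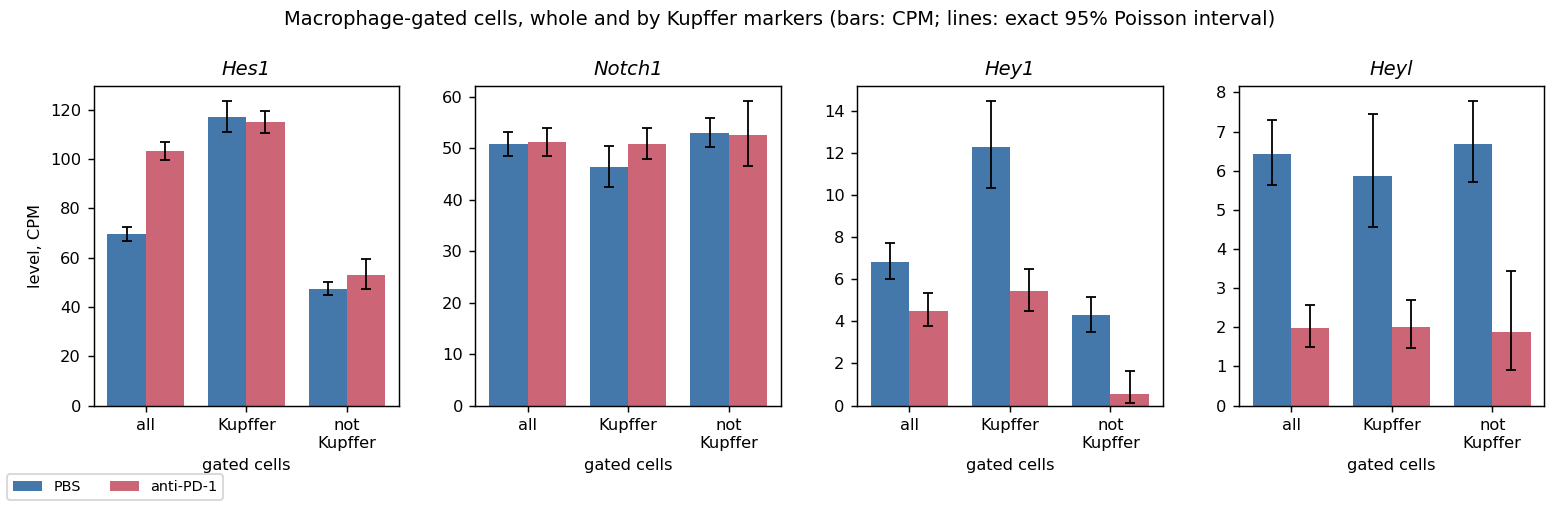
CPM of *Hes1*, *Notch1*, *Hey1* and *Heyl* in all macrophages, Kupffer cells and other macrophages for the PBS and anti-PD-1 libraries; bars start at 0 and lines are exact 95% Poisson intervals. *Hes1* differs between the libraries over all macrophages (69.6 and 103 CPM) but the bars are level within Kupffer cells (117 and 115 CPM).

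Of the receptors in macrophages, *Notch1* was level, at 50.8 and 51.2 CPM (0.01, -0.08 to 0.10), and *Notch2* slightly lower, at 45.3 and 40.6 CPM (-0.14, -0.24 to -0.04). *Notch3* was near the floor and lower, with 39 and 4 UMIs, or 1.06 and 0.142 CPM (-0.24, -0.28 to -0.15). *Heyl* was lower, at 6.42 and 1.99 CPM (-0.71, -0.85 to -0.56), as it was in T cells (8.08 and 1.22 CPM). In the same macrophages neutrophil markers summed to 304 and 622 CPM, endothelial markers to 118 and 229 CPM and epithelial markers to 64.4 and 49.96 CPM, with all 6 of each detected in both libraries, and their part was not tested. *Hey1* was lower as well, in Kupffer cells at 12.3 CPM (10.3 to 14.4) with PBS and 5.43 CPM (4.51 to 6.47) with anti-PD-1 (-0.73, -0.94 to -0.51), and in other macrophages at 4.28 and 0.561 CPM, the latter from 3 UMIs. *Jag1* was at 3.32 and 5.47 CPM in Kupffer cells and 10.4 and 9.17 CPM in other macrophages, with a ratio of 0.33 (0.09 to 0.55) and -0.12 (-0.42 to 0.18), whose intervals overlap. *Jag2* had 4 and 52 UMIs in Kupffer cells. The median of the 10 genes over all macrophages was -0.14 (median of the bounds, -0.22 to -0.05), and that of all genes -0.08. Of 63 other pathway genes compared, none was at least 2-fold lower, against 0.57% of all genes, and 2 were at least 2-fold higher, against 1.97%, namely *Id3*, an inhibitor of DNA binding that Kupffer cells need (463 and 1375 CPM, 1.56, 1.54 to 1.59), and the cell cycle inhibitor *Cdkn1a* (122 and 376 CPM, 1.59, 1.54 to 1.64). Within Kupffer cells and other macrophages the ratio was 0.86 and 0.98 for *Id3* and 1.74 and 1.94 for *Cdkn1a*.

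T cells held *Notch1* at 88.4 CPM (82.9 to 94.2) and 88.0 CPM (83.4 to 92.7), with 85.2 and 79.9 CPM in CD8 T cells and 105 and 96.2 CPM in Treg cells. *Notch2* was lower over all T cells, at 27.1 and 18.6 CPM (-0.44, -0.64 to -0.25), and in CD8 T cells (-0.40, -0.74 to -0.06). After thinning, however, its shares overlapped over all T cells (2.58% and 2.06%) and in CD8 T cells (2.53% and 2.18%). They also overlapped in Treg cells (4.72% and 1.30%) and in CD4 T cells without *Foxp3* (2.11% and 2.55%). In Treg cells *Notch2* was at 29.8 CPM (20.4 to 42.0) and 11.2 CPM (5.94 to 19.1), for a log2 ratio of -1.11 (-1.82 to -0.36), from 32 and 13 UMIs, and *Hes1* at 7.45 and 19.8 CPM (0.99, 0.14 to 1.76), from 8 and 23 UMIs. Over all T cells *Hes1* was at 18.2 and 21.0 CPM (0.16, -0.05 to 0.37), an interval that included 0. Its thinned shares overlapped in CD8 T cells (1.54% and 1.88%), CD4 T cells without *Foxp3* (0.603% and 2.04%) and Treg cells (1.29% and 1.73%). Neutrophils were slightly lower with anti-PD-1 in both *Notch1* (159 and 139 CPM, -0.18, -0.34 to -0.02) and *Notch2* (159 and 133 CPM, -0.25, -0.41 to -0.09). Of the targets, *Hes1* was at 39.3 and 37.9 CPM (-0.04, -0.34 to 0.25) and *Sox9* at 30.2 and 21.8 CPM (-0.40, -0.73 to -0.06). *Heyl* was at 22.8 and 5.23 CPM (-1.44, -1.81 to -1.05) and *Hey1* at 14.1 and 4.01 CPM (-1.09, -1.49 to -0.65). The ligand *Dll4* was at 7.07 and 0.365 CPM (-1.17, -1.36 to -0.79), whose 18 PBS UMIs came from 4 cells. After thinning, neutrophil shares overlapped for *Sox9* (2.49% and 1.79%), *Hey1* (0.664% and 0.325%) and *Dll4* (0.166% and 0.0650%). Those of *Heyl* (1.41% and 0.422%) did not.

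To see which genes shared a pattern, each of the 9 genes with at least 300 UMIs was correlated with 12749 genes over 27 points, each a class in a library with at least 50 cells. The points share libraries and free RNA, and genes used for the gates were not left out. *Heyl* was nearest to *Foxs1*, *Arhgef17* and *Ndrg2* (Pearson r 0.98, 0.95 and 0.95), *Notch3* to *Rgs4*, *Atp1b2* and *Adcyap1r1* (0.93, 0.91 and 0.87), and *Jag1* to *Bod1*, *Tgfb2* and *Nectin3* (0.94, 0.93 and 0.92). *Dll4* was nearest to the gate marker *Kdr* and to *Sox18* and *Flt4* (0.93, 0.88 and 0.87). *Sox9* was nearest to *Gm266*, *Spp1* and *Bche* (0.94 each), *Hey1* to *Pthlh*, *Nrarp* and *Gpam* (0.93, 0.92 and 0.90), *Hes1* to *Dcbld1*, *Prkci* and *Mcee* (0.89, 0.86 and 0.86), *Notch1* to *Depp1*, *Ndfip2* and *Stox2* (0.85, 0.83 and 0.83), and *Notch2* to *Mia2*, *Homer1* and *Ccr1* (0.84, 0.84 and 0.82).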

How the data were processed

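Single-cell RNA-Seq libraries of tumor-bearing livers were made with the Singleron GEXSCOPE kit V2. The files deposited by the authors hold unnormalized counts of UMIs for each gene in each barcode, made with Singleron software on mm10, and per the labels the submitters also used Seurat 4.3. The counter's version, annotation, strand setting and handling of doublets are not given in the sources used here. Genes were placed with GENCODE vM21, which held 99.6% of the 32589 identifiers.

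As in the study, cells needed 500 to 5000 detected genes and no more than 10% mitochondrial UMIs. The SCTransform normalization and the clustering of the study were not repeated. A cell took the class with most of its 6 markers detected, at least 3 and more than for any other of 18 classes. No doublet caller was run. Counts were summed per class and library and scaled to CPM. With 1 library per group no test or p-value was made. Thinning drew each cell to 1000 UMIs and left out shallower cells. Functions were tested on simulated counts (Python 3.11.15, numpy 2.4.6, scipy 1.17.1, pandas 2.3.3). Named were the 10 genes in every class and, of 71 other pathway genes, those at least 2-fold different with at least 20 UMIs. The genes, lists and classes were chosen with earlier results of these data known. The alternatives are given in the closing section.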

Additional observations from a re-analysis of the deposited data

Results flagged for a closer look

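*Sox9* was also counted in cells that took no class and entered no comparison. It was at 119 CPM (112 to 126) in 2843 such cells of the PBS library and at 80.0 CPM (74.5 to 85.9) in 3133 of the anti-PD-1 library, above the 0.336 and 0.310 CPM that 3 UMIs would give there. *Hes1* in the same cells was at 103 and 122 CPM.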

How the results depend on the processing

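No paired analysis was possible because each group is 1 library and the replicate numbers only name the libraries. Of 460 values of single genes under the 13 other settings, 379 stayed within their counting interval, 80 left it and 1 changed sign beyond a 2-fold call, *Sox9* in endothelial cells thinned to 1000 UMIs (0.86). With no minimum of UMIs, the values of single genes equal the main ones by construction, and they are counted among the 379. Of the numbers of genes at least 2-fold lower, that of tumor cells (2) became 1 with a 20% mitochondrial limit, with 4 markers, with a margin of 2 markers and after thinning. That of endothelial cells (3) became 1 with the 20% limit, after thinning and among Y-linked cells, and 0 without the upper limit on detected genes. That of fibroblasts (1) became 2 without that limit and 3 after thinning, and that of macrophages (0) became 1 without that limit and 1 with 1 CPM added. The number at least 2-fold higher in tumor cells (1) became 0 after thinning and 0 without cells with stromal markers, and in fibroblasts (0) it became 2 among Y-linked cells and 1 with no minimum of UMIs. The median ratio became 0.24 in Y-linked tumor cells, -1.77 in thinned fibroblasts, and -0.24 after thinning and -0.25 with 1 CPM added in macrophages. In fibroblasts its sign also turned, to 0.23 with the margin of 2 markers, 0.17 among Y-linked cells and 0.04 with no minimum of UMIs. The share of all genes at least 2-fold different was computed for the main setting only, so these counts have no such share beside them. Medians of all genes under the other settings are not given here, so whether other genes moved alike is not shown. The causes were not tested, but thinning left 4 to 7 genes to compare in each class. The settings with 2 markers, with no minimum of UMIs, without Kupffer markers and without stromal markers were added after seeing the data. Depth limits *Jag2*, *Dll4* and *Notch3* outside their main classes, and all values from the 29 mural and 92 endothelial cells with anti-PD-1.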
